A study of Mus musculus with 10 samples.

Results

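The genes described here are the integrin subunits and laminin chains expressed in murine KPC pancreatic tumors, 36 of the 55359 genes in the deposited table. They were taken by name, as protein-coding genes called Itga or Itgb with a subtype number or letter, or Lama, Lamb or Lamc with a number, and a mean of at least 1 normalized count over the 10 tumors. This gave 26 integrin subunits (18 alpha and 8 beta) and 10 laminin chains. All 36 members reported here passed the filter on low values. Genes that meet the name rule but are not reported here are outside this count.

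The tumors grew from the KPC K8484 line of mouse pancreatic cancer cells, which carries a Trp53 R172H allele, was derived with a Pdx1-Cre driver and expresses luciferase. The cells were implanted into the pancreas of immunocompetent mice aged 10 weeks, labelled C57BL/6 and given as C57BL/6 J in the study's methods, which state equal numbers of males and females. The series holds RNA of 5 tumors from mice kept normoglycemic on regular water (CTRL) and of 5 tumors from hyperglycemic mice given 30% dextrose water for 14 days (D30), described by the submitters as independent biological replicates. All tumors come from 1 line, the sex of single mice was not used here, and the tumors are named by column, N1, N2, N4, N5 and N6 for CTRL and T1, T2, T4, T5 and T7 for D30. The letter N was read as normoglycemic, which leaves the T columns for D30. Sample titles use the term PDX, whereas the sample source is given as KPC K8484 cells, which the methods also describe.

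Each tumor had between 29192261 and 42122304 recovered reads. A pair of D30 tumors stood apart. T4 held the lowest value of the 10 tumors in 22.3% of tested genes and the highest in 24.3%, and it alone had reads of 4 Y-linked genes, 841 of them against 0 in the other 9, although the methods give both sexes in equal numbers. T5 was lowest in 18.8% and highest in 18.9%, and it had the fewest genes with a read, 20482. Calls were also examined without either tumor and without both.

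Laminins are cross-shaped trimers of an alpha, a beta and a gamma chain that polymerize into the basement membrane, the sheet of matrix under epithelia and around vessels. Laminin-332, which contains the chains encoded by Lama3 and Lamb3, is the laminin of epithelial anchoring structures, while laminin-511 and laminin-521, made with Lama5 and Lamc1, are widespread in basement membranes. Integrins are paired alpha and beta receptors that bind such matrix outside the cell and connect it with the actin or keratin skeleton inside. In carcinomas, laminin-332 and its receptors alpha3 beta1 and alpha6 beta4, and the epithelial integrin alpha-v beta6, which releases TGF-beta from its latent form, are well known for their part in adhesion and invasion.

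The D30 tumors held more RNA for the laminin chains Lama3 and Lamb3 and for the integrin beta subunit Itgb6. Lama3 rose 11.5-fold, Lamb3 3.97-fold and Itgb6 2.48-fold in the group means. These 3 of 36 members (8.33%) had an adjusted p under 0.05 in limma's moderated test over 24560 genes with Benjamini-Hochberg adjustment, and no member passed it in the other direction. Over all tested genes 2.76% were called, 1.4% as higher and 1.36% as lower in D30. edgeR on the recovered reads called the same 3 members and no other, with 4.13% of its genes called (2.67% higher, 1.46% lower). DESeq2 called 6 members, these 3 and Lamc3 as higher and Itgad and Lama2 as lower, with 8.07% of genes called (4.71% higher, 3.36% lower). By limma the other 33 members had adjusted p-values from 0.0554 to 0.996. Log2 fold changes were above 0 in 16 members and below 0 in 20, with a median of −0.06 against −0.06 over all tested genes.

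Promoter sequence is shown for the called members that had it in the RefSeq table (GRCm38.p6), to give the DNA around the start sites of the genes that rose. Windows covering 250 bases before to 50 after a start were present for 23 of the 36 members, with 2 windows each for Lamb3 and Itgb6, of which 1 each is printed. Lamb3 lies on the plus strand of chromosome 1, from 193207699 to 193343878 in GRCm38. Its second window, chr1:193301993-193302292 (plus strand, 5′ to 3′), is printed with the match to the TEAD motif GGAATG, found on the opposite strand, in capitals. Itgb6 lies on the minus strand of chromosome 2, from 60598292 to 60722643, and its first window, chr2:60722554-60722853, is read 5′ to 3′ on that strand.
Lamb3: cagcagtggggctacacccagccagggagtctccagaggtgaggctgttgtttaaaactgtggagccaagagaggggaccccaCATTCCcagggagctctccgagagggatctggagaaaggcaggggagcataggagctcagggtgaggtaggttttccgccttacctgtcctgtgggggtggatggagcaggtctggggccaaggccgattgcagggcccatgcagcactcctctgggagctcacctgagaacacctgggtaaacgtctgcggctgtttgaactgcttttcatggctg
Itgb6: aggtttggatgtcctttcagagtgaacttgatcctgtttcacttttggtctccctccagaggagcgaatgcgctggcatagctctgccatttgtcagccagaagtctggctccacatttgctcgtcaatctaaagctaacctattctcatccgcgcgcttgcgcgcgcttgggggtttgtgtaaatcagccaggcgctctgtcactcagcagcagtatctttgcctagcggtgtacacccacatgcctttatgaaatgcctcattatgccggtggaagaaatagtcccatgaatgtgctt
Matches to 3 motifs were searched on both strands, and no matches overlap in the printed windows. The AP-1 motif TGANTCA was in 7.81% of the 32851 windows of the table. It was in 3 of the 26 windows of members (11.5%), from 3 of the 23 matched members. The TEAD motif GGAATG was in 14.7% of all windows and in 3 windows of members (11.5%), from 3 matched members. The SP/KLF motif GGGCGG was in 35.7% of all windows and in 12 windows of members (46.2%), from 11 matched members. The printed Lamb3 window held 1 TEAD match, starting at base 84. The first Lamb3 window (chr1:193301744-193302043) and both Itgb6 windows, the other at chr2:60673644-60673943, held none of the 3 motifs. A match is a description of letters, not evidence that a factor binds. No window for Lama3 was in the table.

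Lama3 encodes the alpha3 chain, the part of laminin-332 that integrins bind. Its normalized counts were 114, 144, 688, 158 and 161 in CTRL tumors N1, N2, N4, N5 and N6, and 2478, 2861, 4112, 3857 and 1166 in D30 tumors T1, T2, T4, T5 and T7. The groups did not overlap, but N4 stood well above the other CTRL tumors and T7 below the other D30 tumors. Means were 253 ± 244 in CTRL and 2895 ± 1180 in D30 (SD, n = 5 each), and the log2 fold change was 3.75 with an SE of 0.47 (limma, adjusted p = 0.00162). This was the largest log2 fold change among the 36 members. Without N4 it was 4.21 (adjusted p = 0.00035), and without both T4 and T5 it was 3.36 (adjusted p = 0.000854). A predicted antisense gene, Gm29200, shares 1.83% of the Lama3 exon bases and had a mean of 2.02 normalized counts itself.

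Lamb3 encodes the beta3 chain, known almost only from laminin-332. It had 1282, 2112, 3202, 1828 and 1766 normalized counts in the CTRL tumors and 6340, 6976, 6027, 16101 and 5056 in the D30 tumors, in the same column order. Every D30 tumor was above every CTRL tumor, and T5 had more than any other tumor by a wide margin. For both chains N4 was the highest CTRL tumor and T7 the lowest D30 tumor. The group means were 2038 ± 716 and 8100 ± 4526 (SD, n = 5 each), and the log2 fold change was 1.92 with an SE of 0.32 (limma, adjusted p = 0.0066). Without T5 the log2 fold change was 1.64 (adjusted p = 0.00465).

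**Figure D1:**
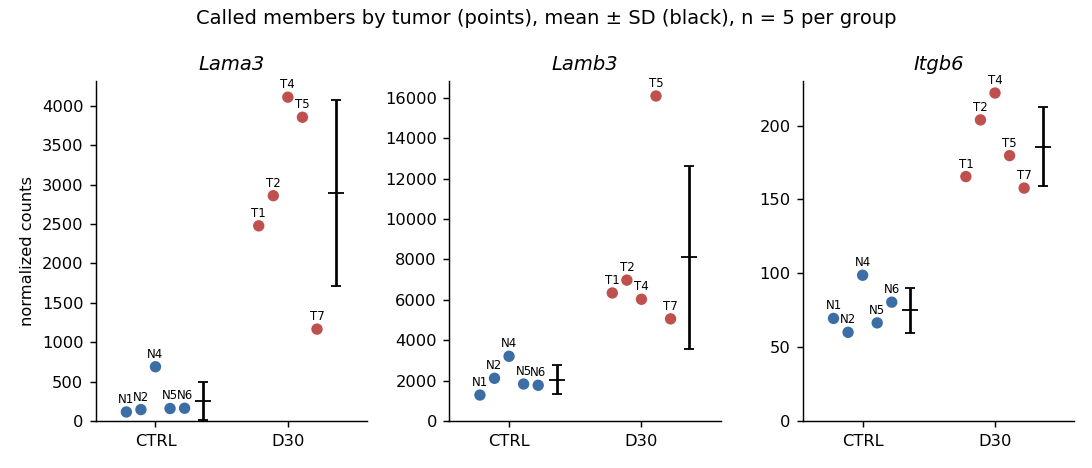
Normalized counts of Lama3, Lamb3 and Itgb6 in each of the 5 CTRL (blue) and 5 D30 (red) tumors on linear axes that start at 0. Every point is 1 tumor labelled by its column, and the black bars show the group mean ± SD (n = 5). In all 3 genes the lowest D30 tumor lies above the highest CTRL tumor; Lama3 in N4 (688) and Lamb3 in T5 (16101) lie apart from the rest of their groups.

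Epithelial marker RNA was also higher in the D30 tumors. In bulk tissue, a change in the number of cells of a type and a change in RNA per cell cannot be told apart. The summed normalized counts of 8 epithelial markers (Krt8, Krt18, Krt19, Krt7, Cdh1, Cldn4, Sox9 and Epcam) ranged from 209950 to 335623 in CTRL and from 341449 to 476102 in D30, a 1.66-fold difference in means. None of the 8 was called. An unadjusted p under 0.05, which 17.3% of tested genes had, was found for 6 that were higher in D30 and for Epcam, which was lower. The sum is mostly keratin RNA. In D30 the means of Krt8, Krt18, Krt19 and Krt7 were 131763, 107376, 95514 and 46939, beside 406725 for the whole sum. Epcam, a defining epithelial marker, was low throughout at a mean of 85.2 in CTRL and 16.1 in D30, and was at 0 in T2. N4, the CTRL tumor with the most Lama3, Lamb3 and Itgb6 RNA, also had the highest epithelial sum in CTRL.

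Each called gene was therefore also expressed per 10000 normalized counts of the epithelial sum, a measure chosen after seeing the data. Lama3 ranged from 5.23 to 20.5 in CTRL and from 31.9 to 99.2 in D30, a log2 difference of 3.02. Lamb3 ranged from 59.1 to 98.6 and from 138 to 338, a log2 difference of 1.18. For both chains the groups stayed apart on this scale. Itgb6 ranged from 2.8 to 3.21 and from 3.77 to 5.97, also without overlap, a log2 difference of 0.58. The log2 fold changes of the normalized counts were 3.75 for Lama3, 1.92 for Lamb3 and 1.31 for Itgb6. Division by the same sum lowers the log2 value of every gene by nearly the same amount.

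**Figure D2:**
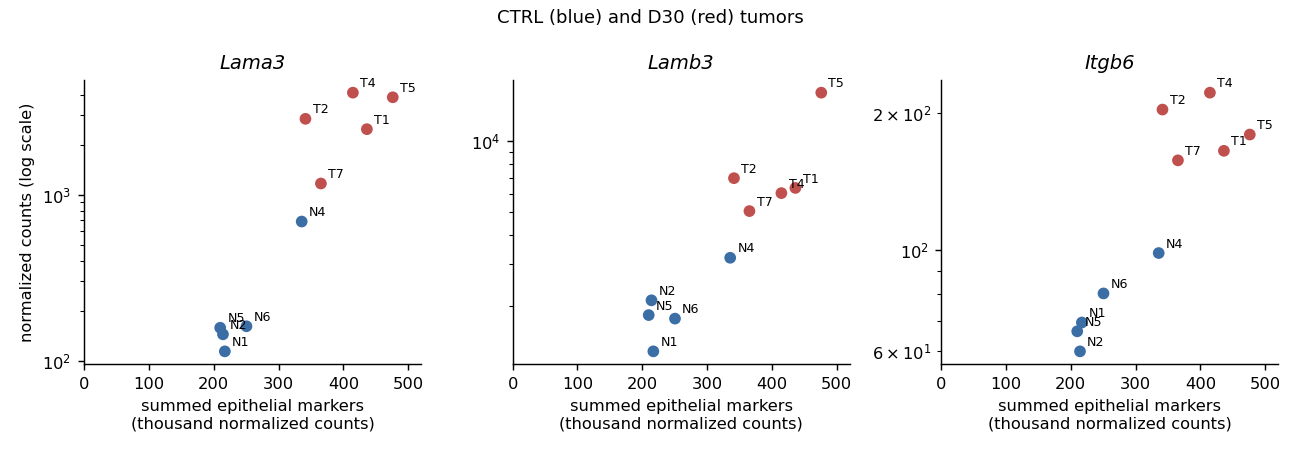
Normalized counts of Lama3, Lamb3 and Itgb6 (vertical, log axis) against the summed normalized counts of the 8 epithelial markers (horizontal, in units of 1000), 1 labelled point per tumor, with CTRL in blue and D30 in red. The epithelial sum reaches 335623 in CTRL (N4) and starts at 341449 in D30, and the D30 points also lie higher on the vertical axis than the CTRL points.

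The make-up of the laminin alpha and beta chains shifted with these rises. Within each tumor, counts were divided by exon length and expressed as the share of a chain among its kind, which allows genes to be compared. Lama3 made up 0.734, 0.308, 2.16, 0.281 and 0.413% of alpha-chain RNA per length in the CTRL tumors and 6.2, 7.61, 32.4, 5.57 and 3.78% in the D30 tumors. Lamb3 made up 14.2 to 26.1% of the beta chains in CTRL and 32.2 to 72% in D30. The groups did not overlap for either chain, and T4 had the highest share of both. Lama5 remained the main alpha chain in every tumor, at 91.6 to 98.1% in CTRL and 61.6 to 94% in D30, with the 61.6% in T4.

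**Figure D3:**
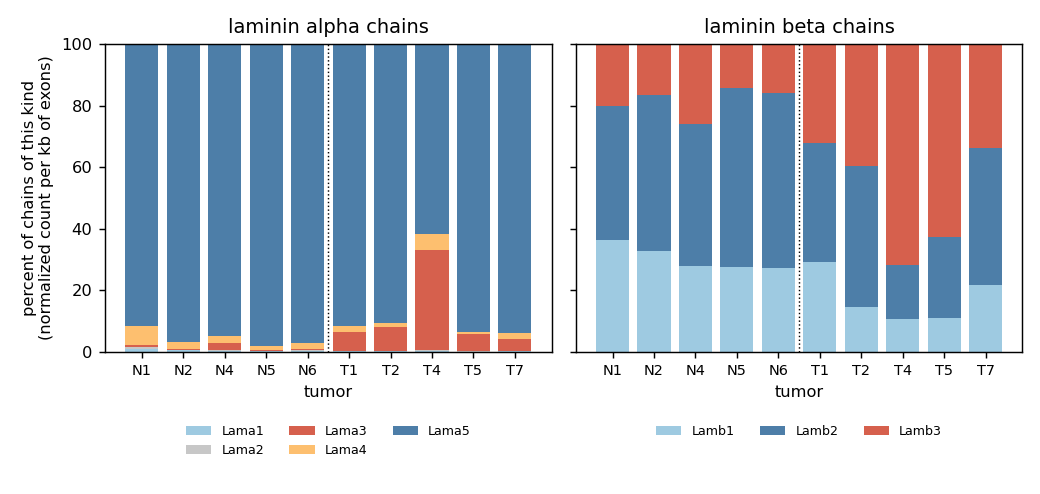
Share of each laminin chain among the alpha and beta chains of each tumor, in percent of normalized counts per kilobase of exons, as stacked bars that add up to 100%. The Lamb3 part is larger in every D30 tumor than in any CTRL tumor, and the Lama3 part reaches 32.4% in T4 and lies between 3.78 and 7.61% in the other D30 tumors.

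Lama3 and Lamb3 did not rise to the same extent. Per exon length, Lamb3 exceeded Lama3 by 7.56 to 23.9 times in CTRL and by 2.38 to 7.04 times in D30. These ranges did not overlap, so the scarcer alpha3 chain came closer to beta3 in the D30 tumors. Against Lama5, Lama3 also gained. Lama5 exceeded it by 44 to 349 times per exon length in CTRL and by 1.9 to 24.8 times in D30, again without overlap.

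The chains of the widespread laminins showed no call and varied widely between tumors. Lama5, whose alpha5 chain defines laminin-511 and laminin-521, had the highest level per exon length of the laminin chains described here, a mean of 3303 normalized counts per kilobase. It had 15025, 47952, 32069, 58226 and 40144 normalized counts in CTRL and 38804, 36128, 8284, 68790 and 30703 in D30. The groups overlapped, with T4 lowest and T5 highest of all 10 tumors. Its log2 fold change was −0.23 (SE 0.5, 95% interval −1.31 to 0.85, limma adjusted p = 0.861), and without T4 it turned to 0.24 (adjusted p = 0.735).

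Lamb1 and Lamb2, the alternative beta chains of those trimers, and Lamc1, their gamma chain, had like patterns. Lamb1 counts were 3481, 6235, 5113, 5304 and 4507 in CTRL and 8608, 3801, 1324, 4132 and 4835 in D30 (log2 fold change −0.32, 95% interval −1.16 to 0.51). Lamb2 counts were 2549, 5980, 5222, 6895 and 5782 in CTRL and 7008, 7490, 1349, 6208 and 6188 in D30 (−0.04, interval −0.99 to 0.90). Lamc1 counts were 4274, 8298, 7390, 9114 and 7530 in CTRL and 11544, 7478, 2277, 10349 and 6834 in D30 (−0.07, interval −0.90 to 0.76). In all 3 chains T4 was the lowest of the 10 tumors and N1 the lowest CTRL tumor, and the groups overlapped. Limma's adjusted p-values were 0.72, 0.973 and 0.948, and without T4 the log2 fold changes were 0.06, 0.42 and 0.32 with adjusted p-values of 0.903, 0.333 and 0.443.

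The remaining alpha chains had lower means in D30, and none was called. Lama1, the alpha chain of embryonic laminin-111, had 139, 196, 95.02, 109 and 111 normalized counts in CTRL and 81.2, 58.4, 30.1, 5.72 and 83.1 in D30. The groups did not overlap, and T5 was far below the rest. Its log2 fold change was −1.71 with an SE of 0.61, which did not pass the adjusted threshold (limma, adjusted p = 0.165). It was −1.08 without T5 (adjusted p = 0.13) and −0.77 without T4 and T5 (adjusted p = 0.104). Ranges failed to overlap in 5 members in all (13.9%, against 6.19% of tested genes). These were the 3 called genes, higher in D30 (2.87% of tested genes), and Lama1 and Itgad, lower in D30 (3.32% of tested genes).

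Lama2, the alpha chain of muscle and nerve basement membranes, had means of 82.0 ± 23.9 and 40.9 ± 12.6 (SD, n = 5 each), a log2 fold change of −0.99 (limma, adjusted p = 0.165), and DESeq2 called it (adjusted p = 0.0302). Lama4, the alpha chain of vessel basement membranes, had means of 952 ± 132 and 681 ± 133 and a log2 fold change of −0.49 (adjusted p = 0.212). Beside Lama4, the summed counts of 8 endothelial markers ranged from 13474 to 21522 in CTRL and from 6549 to 11879 in D30, with Cdh5 (VE-cadherin) called lower (adjusted p = 0.0117). The part of this in the Lama4 values was not tested. Lamc3, the gamma3 chain, had 8.42 to 64.0 normalized counts in CTRL and 21.98 to 85.9 in D30 apart from 632 in T5. The log2 fold change, 1.52 with all tumors (adjusted p = 0.355), was 0.78 without T5, and DESeq2 alone called it (adjusted p = 0.0425).

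**Figure D4:**
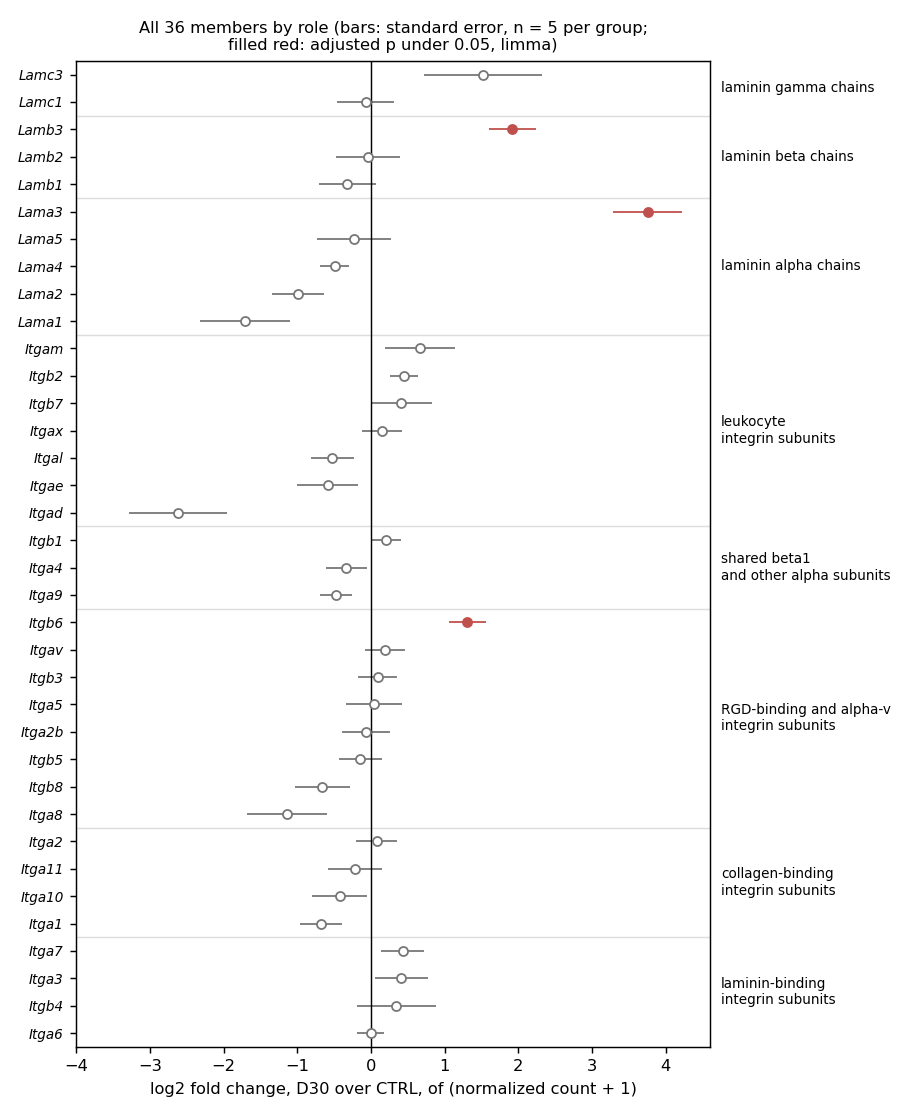
Log2 fold change of D30 over CTRL with its standard error (horizontal bars, n = 5 per group) for each of the 36 members, grouped by role, from limma on log2(normalized count + 1). Called members are filled red and lie at 3.75 (Lama3), 1.92 (Lamb3) and 1.31 (Itgb6), and the uncalled member farthest from 0 is Itgad at −2.62.

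Among the integrins that bind RGD motifs or contain the alpha-v subunit, Itgb6 was called and the other 7 were not. Itgb6 encodes beta6, an epithelial subunit whose only partner is alpha-v. It had 69.4, 60.0, 98.7, 66.4 and 80.4 normalized counts in the CTRL tumors and 166, 204, 222, 180 and 158 in the D30 tumors. All D30 tumors exceeded all CTRL tumors, and the spread within each group was small. Group means were 75.0 ± 15.2 in CTRL and 186 ± 26.8 in D30 (SD, n = 5 each), with a log2 fold change of 1.31 with an SE of 0.25 (limma, adjusted p = 0.0153). The call was lost without N2 (adjusted p = 0.0631) and without N5 (0.0505), while the log2 fold change stayed at 1.23 and 1.27. The adjusted p also depends on the other genes of each fit. Without T2 the unadjusted p was larger than without N5 (limma, 0.000792 against 0.000714), yet the call was kept (adjusted p = 0.0458).

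Itgb6 remained a minor beta subunit in both groups. Per exon length it made up 0.11 to 0.155% of beta-subunit RNA in CTRL and 0.231 to 0.347% in D30. Itgav, its only alpha partner and a subunit shared with Itgb1, Itgb3, Itgb5 and Itgb8, had 3784, 3189, 3059, 3342 and 2993 normalized counts in CTRL and 3415, 2640, 6533, 5356 and 2287 in D30. T4 and T5 were above all other tumors, T1 was within the CTRL range and T2 and T7 were below it. Its log2 fold change was 0.19 (SE 0.27, 95% interval −0.39 to 0.78, limma adjusted p = 0.765), and −0.25 without T4 and T5. The ratio of Itgav to Itgb6 per exon length was 20.5 to 36.1 in CTRL and 8.57 to 19.7 in D30, without overlap.

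Itgb5, a widely expressed beta partner of alpha-v that binds vitronectin, had the highest level per length in this group, 1511 normalized counts per kilobase. Its counts were 4126, 5894, 5797, 6272 and 5280 in CTRL and 6088, 5881, 2099, 5338 and 6918 in D30. T4 was far below the other 9 tumors, which overlapped. On the log2 scale the fold change was −0.15 (95% interval −0.78 to 0.48, limma adjusted p = 0.84), and 0.15 without T4 (adjusted p = 0.595). Itgb8, which like beta6 pairs with alpha-v and engages latent TGF-beta, had means of 58.9 ± 17.7 and 37.8 ± 16.2 (SD, n = 5 each) and a log2 fold change of −0.66 (adjusted p = 0.398).

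The other subunits of this group were Itga5, the fibronectin receptor alpha chain, Itgb3 and Itga2b, which form the platelet fibrinogen receptor, and Itga8, a nephronectin receptor chain of mesenchyme. Their log2 fold changes were 0.03, 0.09, −0.07 and −1.14, with adjusted p-values of 0.977, 0.897, 0.942 and 0.302. Itga5 ranged from 2410 to 5024 normalized counts in CTRL and from 1544 in T4 to 9110 in T5 in D30. Beside Itga2b and Itgb3, the 5 platelet markers summed to 412 to 686 in CTRL and to 312 to 4633 in D30, with the maximum in T4, and Gp9 was called higher (adjusted p = 0.00482). T4 had the lowest Itga2b value of all tumors, 110, and an Itgb3 value of 1367.

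The receptors of laminin-332 were not called. Itga3, which pairs with beta1, had the highest level per length of the 18 alpha subunits, a mean of 2250 normalized counts per kilobase. It had 6370, 11307, 14142, 10684 and 10099 normalized counts in CTRL and 23740, 14727, 4966, 15591 and 16856 in D30. The 4 D30 tumors other than T4 were above all CTRL tumors, and T4 was below them all. The log2 fold change was 0.41 (SE 0.36, 95% interval −0.37 to 1.19, limma adjusted p = 0.611). Without T4 it was 0.77 (adjusted p = 0.0556), and without T4 and T5, a fit added after seeing the data, it was 0.83 (adjusted p = 0.0433), when 9.97% of all tested genes were called.

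Itgb4, the beta4 subunit of hemidesmosomes, pairs only with Itga6. Its counts were 1883 to 6494 in CTRL and 6827 to 9383 in D30 except for 1157 in T4. The log2 fold change was 0.34 (95% interval −0.81 to 1.503, limma adjusted p = 0.792), and 0.91 without T4 (adjusted p = 0.0944). Itga6 had the smallest SE of the 36 members. It ranged from 7482 to 8928 in CTRL and from 6040 to 10906 in D30, with a log2 fold change of −0.00 (SE 0.18, interval −0.40 to 0.39, adjusted p = 0.996). Itga7, the laminin receptor chain of muscle, had means of 1001 ± 406 and 1306 ± 405 (SD, n = 5 each) and a log2 fold change of 0.43 (adjusted p = 0.482).

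Itgb1, the beta subunit with the most alpha partners, had the highest level per length of all members, 5426 normalized counts per kilobase. It had 21277, 19297, 23261, 19979 and 17996 normalized counts in CTRL and 20736, 19369, 30817, 29695 and 19025 in D30. T4 and T5 were above the rest, and the other 3 D30 tumors lay within the CTRL range. The log2 fold change was 0.21 (SE 0.2, 95% interval −0.23 to 0.64, limma adjusted p = 0.648). Itga4 and Itga9, alpha subunits that bind fibronectin and VCAM-type ligands, had log2 fold changes of −0.34 (adjusted p = 0.583) and −0.48 (adjusted p = 0.274). Without T5 the value for Itga4 was −0.09 (adjusted p = 0.862).

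None of the 4 collagen receptor alpha chains was called. Itga2, the main collagen receptor chain of epithelia and the highest of the 4 per exon length, had 4751, 4453, 3754, 4094 and 3520 normalized counts in CTRL and 3579, 4100, 8690, 4841 and 2401 in D30. T4 was the highest of the 10 tumors and T7 the lowest, and the groups overlapped. Its log2 fold change of 0.07 (SE 0.28, 95% interval −0.53 to 0.68, limma adjusted p = 0.924) became −0.18 without T4. Itga1, a collagen IV receptor chain of vessels and stroma, had means of 2829 ± 477 and 1912 ± 903 (SD, n = 5 each), a log2 fold change of −0.68 (adjusted p = 0.249) that was −0.46 without T5 and −0.25 without T4 and T5. Itga10 and Itga11, collagen receptor chains of cartilage and fibroblasts, had log2 fold changes of −0.42 (adjusted p = 0.61) and −0.21 (adjusted p = 0.814), and the value for Itga10 was −0.13 without T4. Beside these, 8 fibroblast markers summed to 76539 to 135533 in CTRL and to 26981 to 102553 in D30, with none of them called, and their part in the values was not tested.

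The leukocyte integrins, which pair beta2 or beta7 with alpha chains of myeloid and lymphoid cells, also gave no call. Itgb2, the highest of them per exon length, had 948, 1021, 1013, 642 and 805 normalized counts in CTRL and 979, 1189, 1255, 1425 and 1136 in D30. All D30 tumors but T1 were above every CTRL tumor. The log2 fold change was 0.44 with an SE of 0.19 (limma, adjusted p = 0.255). The summed counts of 8 general leukocyte markers ranged from 6601 to 10697 in CTRL and from 5817 to 9064 in D30.

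Itgad encodes alphaD, a beta2 partner on tissue macrophages. It had 34.7, 22.4, 22.8, 16.8 and 26.5 normalized counts in CTRL and 3.09, 13.8, 1.16, 0 and 7.46 in D30. The lowest CTRL tumor was above the highest D30 tumor, T2, at counts that are small throughout. The means were 24.7 ± 6.6 and 5.09 ± 5.61 (SD, n = 5 each), and the log2 fold change of −2.62 (SE 0.67) did not pass the threshold (limma, adjusted p = 0.0554). DESeq2 on the recovered reads called it (adjusted p = 0.0111), whereas edgeR did not (adjusted p = 0.0911). The 8 macrophage markers summed to 18656 to 31070 in CTRL and to 9666 to 26699 in D30, with Csf1r (adjusted p = 0.0449) and Cd163 (adjusted p = 0.0174) called lower, and their part in the Itgad values was not tested.

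Itgam, the alphaM chain of neutrophils and macrophages, ranged from 174 to 500 normalized counts in CTRL and from 238 to 1537 in D30. The high values were 1537 in T4 and 1029 in T5, and the other 3 D30 tumors lay between 238 and 470. Its log2 fold change was 0.66 (adjusted p = 0.51), and −0.10 without T4 and T5. The neutrophil markers summed to 1014 to 3744 in CTRL and to 1094 to 17511 in D30, with the maximum in T5. A predicted gene on the same strand, Gm49368, shares 68.7% of the Itgam exon bases and had a mean of 0.302, so that the division of reads between them is uncertain. Itgal, the alphaL chain of lymphocytes, and Itgae, the alphaE chain of T cells in epithelia, had log2 fold changes of −0.53 (adjusted p = 0.378) and −0.59 (adjusted p = 0.508), beside T and NK cell markers that summed to 264 to 533 in CTRL and to 166 to 258 in D30. Without T4 and T5 these log2 fold changes were −0.21 for Itgal and −0.33 for Itgae. Itgax, the alphaX chain of dendritic cells and macrophages, and Itgb7, the beta partner of Itgae and Itga4, had log2 fold changes of 0.15 (adjusted p = 0.831) and 0.41 (adjusted p = 0.66).

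Across the members, T4 and T5 deviated most, as they did over all tested genes. T4 was the lowest of the 10 tumors in 11 of the 36 members and the highest in 6, beside 22.3% and 24.3% of all tested genes. Those at the bottom in T4 included Itga3, Itga5, Itgb4, Itgb5, Lama5, Lamb1, Lamb2 and Lamc1, and those at the top were Lama3, Itgb6, Itgam, Itgb1, Itgav and Itga2. T5 was lowest in 8 members and highest in 9, beside 18.8% and 18.9% of all tested genes. The 3 called members stayed called without T4, without T5 and without both, when 6.43% of all genes were called without T4 (3.32% higher, 3.11% lower) and 9.97% without both (5.09% higher, 4.87% lower).

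**Figure D5:**
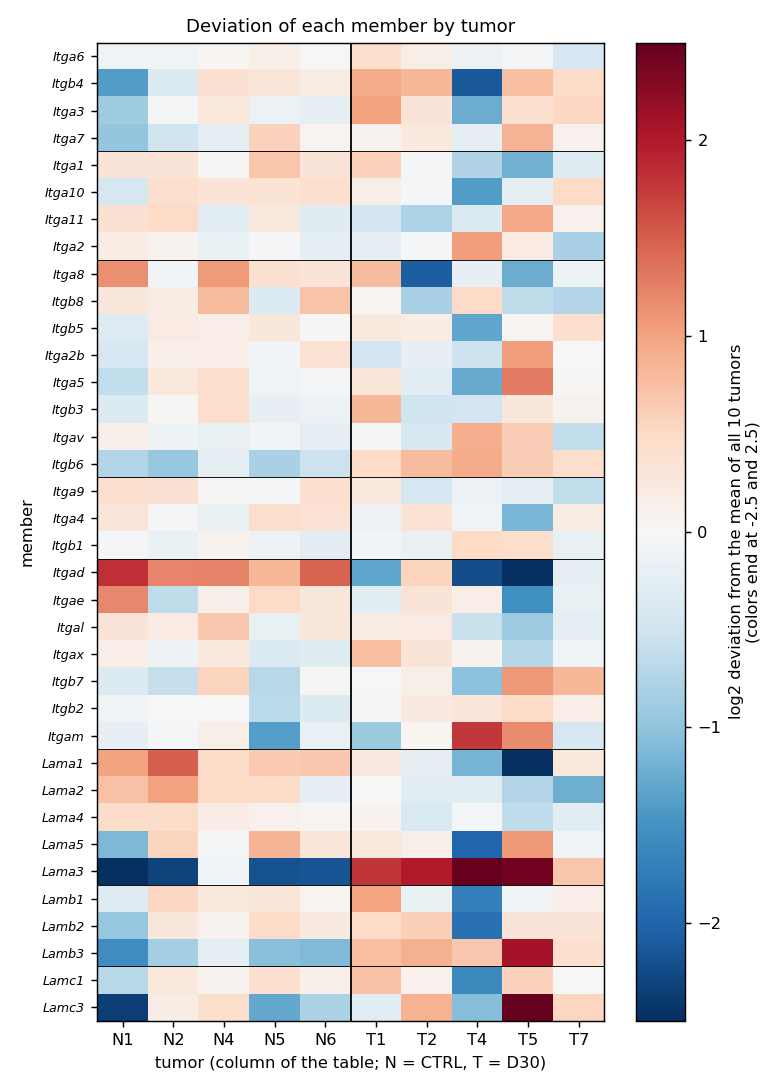
Deviation of each member in each tumor from its mean over the 10 tumors, on the scale of log2(normalized count + 1), as a color map with members in rows by role and tumors in columns by group. Lama3, Lamb3 and Itgb6 separate the 5 CTRL from the 5 D30 columns, and the T4 column is low for Itgb4, Itgb5, Lama5, Lamb1, Lamb2 and Lamc1.

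The proteins that integrins and laminins work with were counted from 3 lists. The first held 20 genes of basement membranes, non-integrin laminin receptors and epithelial anchoring structures, the last with Plec, Dst and Cd151 among them. None was called by limma, 4 had an unadjusted p under 0.05 (17.3% of all tested genes did) and the median log2 fold change was −0.26. The smallest p in this list was that of Col4a5, a collagen IV chain, whose mean was 980 ± 114 in CTRL and 610 ± 145 in D30 (SD, n = 5 each). Its log2 fold change was −0.71 (adjusted p = 0.0955), its groups did not overlap, and DESeq2 called it (adjusted p = 0.0201). Ntn4, a laminin-binding netrin, followed with 0.74 (adjusted p = 0.208). DESeq2 also called Col17a1 as higher (log2 fold change 1.91, adjusted p = 0.0277), which limma did not (adjusted p = 0.236).

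Of 22 other integrin ligands, 1 was called, beside 2.76% of all tested genes. Mfge8, a secreted RGD protein that binds alpha-v integrins, had 6448, 7301, 8752, 7066 and 6816 normalized counts in CTRL and 11024, 9738, 12820, 14242 and 11219 in D30. The groups did not overlap. The means were 7277 ± 883 and 11809 ± 1746 (SD, n = 5 each), and the rise on the log2 scale was 0.69 with an SE of 0.17 (limma, adjusted p = 0.0491), a call that was lost on leaving out any 1 tumor other than T4 (adjusted p from 0.0584 to 0.141). Fn1, fibronectin, the main ligand of alpha5 beta1, had means of 67278 ± 19592 and 27440 ± 13628 and a log2 fold change of −1.44 (adjusted p = 0.0814). Without T4 it passed the threshold (limma, adjusted p = 0.033), and DESeq2 called it as lower with all tumors (adjusted p = 0.0187). In this list 10 of 22 genes had an unadjusted p under 0.05 in limma, beside 17.3% of all tested genes. Of these, Mfge8 and Cdh1 were higher in D30 and the rest were lower. The median log2 fold change was −0.49. Fibroblast markers, which share Col1a1 and Col1a2 with this list, summed to 76539 to 135533 in CTRL and to 26981 to 102553 in D30. Their part in the ligand values was not tested.

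Of 37 integrin activators and focal adhesion proteins, 1 was called, a share near the 2.76% of all tested genes. Lims2 (PINCH2), an adaptor of the integrin-linked kinase complex, had 186, 193, 268, 217 and 204 normalized counts in CTRL and 473, 466, 628, 2252 and 515 in D30. Every D30 tumor was above every CTRL tumor, with T5 far above the others. The log2 fold change was 1.71 with an SE of 0.39 (limma, adjusted p = 0.0326), and 1.28 without T5 (adjusted p = 0.00584). Leaving out any 1 of the CTRL tumors ended the call, with adjusted p-values from 0.0556 to 0.0969, as did leaving out T7 (0.0541), and DESeq2 gave Lims2 no adjusted p. Cib1, an integrin-binding protein, had the next smallest p, with a log2 fold change of 0.61 (adjusted p = 0.144). The median of this list was −0.02, and 3 genes had an unadjusted p under 0.05 in limma, beside 17.3% of all tested genes.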

How the data were processed

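Bulk tumor RNA was made into strand-specific libraries and sequenced in pairs. Per the labels and the study's methods, the authors trimmed reads with Trim Galore and aligned them with STAR (2.7.0e); RSEM and DESeq2 are also listed. As the genome, hg38 is given in the methods and GRCm39 in the submitters' processing notes, while the table lists mouse Ensembl identifiers. The annotation release and counting settings are not given in the sources used here. The deposited values are 1 normalized signal for each gene in each tumor, called normalized counts here, since the authors divided each tumor's counts by its size factor. All values above 0 (100%) were whole reads after division by the column's step, within 0.05 of a read. No paired term could be used, because columns could not be tied to single animals, and a term for Y-linked reads would mark T4 alone, which the fit without T4 covers.

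Identifiers were matched to GENCODE M21 (GRCm38), which named 52083 genes (94.1%). The 24560 genes averaging 1 or more normalized counts over the 10 tumors entered the test, on log2(normalized count + 1) with limma (3.58.1, R 4.3.3, moderated test with a mean-variance trend) and Benjamini-Hochberg adjustment over all of them, and an adjusted p under 0.05 was a call. Fold changes on this scale are smaller than true ratios for low genes. edgeR (4.0.16) and DESeq2 (1.42.0) on the recovered reads, other scalings, pseudocounts of 0.5 and 5, other filters and fits leaving out tumors were the 20 alternatives. P-values weigh the difference between the groups against the spread between the tumors within them, and precision is limited by 5 tumors in each.

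The members, the partner and marker lists and the tests were chosen with earlier results of these data known. The text gives values in every tumor for called members, members whose ranges do not overlap, the highest member per length in each role and the mates of called members, and names, for each partner list, called genes and the 2 with the smallest p. Nov, Cyr61 and Ctgf in the ligand list are older names of Ccn3, Ccn1 and Ccn2, which were tested under those names. Some results of genes that meet the name rule are not reported here, and counts of members leave them out. Lengths are merged exons of M21. Sequences came from the RefSeq promoter table.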

Additional observations from a re-analysis of the deposited data

Results flagged for a closer look

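A tumor was flagged where its gap to the nearest tumor of its group, divided by the range of the group, exceeded 0.71. This is the 95% critical value of Dixon's test for 5 values. Gaps and ranges were taken on the scale of log2(normalized count + 1), whereas the values printed below are normalized counts. Over 72 groups (36 genes in CTRL and D30) there were 9 such tumors, and chance gives about 1 in 20.

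In CTRL, N4 was high in Lama3 (688 normalized counts, the others 114 to 161). N1 was low in Lamb2 (2549, the others 5222 to 6895), in Lamc1 (4274, the others 7390 to 9114) and in Itga10 (56.8, the others 96.9 to 104). N5 was low in Itgam (174, the others 392 to 500).

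In D30, T4 was low in Lamb2 (1349, the others 6188 to 7490), in Itgb4 (1157, the others 6827 to 9383) and in Itgb5 (2099, the others 5338 to 6918). T5 was high in Lamb3 (16101, the others 5056 to 6976). N1 and T4 held 3 flags each. The reason for these values was not tested.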

How the results depend on the processing

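No paired analysis was possible because the columns carry numbers that do not match the replicate numbers of the labels. Lama3 and Lamb3 were called under all 20 alternatives (log2 fold changes of 3.36 to 4.21 and 1.64 to 2.10, highest adjusted p 0.00759 and 0.0241) and Itgb6 under 18 (1.09 to 1.41, highest adjusted p 0.0631). Over all genes, 678 were called, 1982 by DESeq2, 2418 without T4 and T5 (chosen after seeing the data) and 279 (without N2) to 1573 (without T4) with 1 tumor left out. Members called lower numbered 0, against 2 by DESeq2 (Itgad and Lama2), 1 (Itgad) with a pseudocount of 5, with scaling by total reads and without T4 and T5, and 0 to 1 with 1 tumor left out. Partners called numbered 2, against 5 by DESeq2, 1 without a filter, 1 with upper-quartile scaling, 11 without T4 and T5, and 0 to 6 with 1 tumor left out. Scaling by total reads moved the median of all genes to −0.27 and that of the members to −0.28, and of its 864 calls 240 were higher in D30, against 344 of 678. edgeR called 457 of 707 as higher.

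Of 723 recomputed member values, 659 kept their direction and side of the threshold, 2 lost and 8 gained a call, and 54 in 14 uncalled members changed sign, each from a log2 fold change of at most 0.66 in size. With total reads these were Itga2 −0.15, Itga5 −0.19, Itgav −0.031, Itgax −0.078, Itgb1 −0.019 and Itgb3 −0.13. With DESeq2 they were Itga2b 0.0346, Itga6 0.022, Lamb2 0.096 and Lamc1 0.072, with edgeR (TMM) 0.051, 0.034, 0.11 and 0.0855, and with edgeR on the deposited size factors 0.035, 0.022, 0.096 and 0.072. With the upper quartile, Itga6 was 0.042 and Lamb2 0.0008. Without T4 and T5, Itga2 was −0.32, Itga6 0.054, Itgam −0.096, Itgav −0.25, Itgb1 −0.042, Itgb5 0.21, Lamb1 0.16, Lamb2 0.45 and Lamc1 0.24. With 1 tumor left out the ranges were −0.18 to 0.29 (Itga2), −0.34 to 0.058 (Itga2b), −0.29 to 0.35 (Itga5), −0.11 to 0.099 (Itga6), −0.0089 to 0.37 (Itgav), −0.025 to 0.34 (Itgax), −0.11 to 0.23 (Itgb3), −0.28 to 0.15 (Itgb5), −0.53 to 0.24 (Lama5), −0.61 to 0.063 (Lamb1), −0.29 to 0.42 (Lamb2) and −0.27 to 0.32 (Lamc1). The cause was not tested. Members under 100 normalized counts are limited by depth as well as by 5 tumors a group.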
